A study of Mus musculus with 4 samples.

Results

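The interferon regulatory factors (IRFs) are a family of transcription factors, and 8 of their genes, *Irf1*, *Irf2*, *Irf3*, *Irf4*, *Irf5*, *Irf7*, *Irf8* and *Irf9*, were followed here among the 21878 genes of a count table. Within the table they were taken by symbol. The table holds RNA sequencing of mouse bone marrow-derived macrophages (BMDMs) from C57BL/6 mice aged 8 weeks, kept for 48 h in coculture with MC38, a mouse colon carcinoma line. 2 libraries are labelled wild type (WT) and 2 are labelled anti-Act1, the name of a mouse in which Act1 (gene *Traf3ip2*), an adaptor of the IL-17 receptor, is knocked down in macrophages. The study's methods place the tumor cells in transwell inserts, so that a porous membrane parted them from the macrophages, and every library came from a coculture. The study's text gives a shorter coculture and a wider range of ages than the labels, whose values are used here. The promoter that drives the knockdown is not given in the sources used here. The methods call the libraries of a group biological replicates, but no source ties them to separate animals, so the p-values measure the spread between these libraries, which may be technical.

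IRFs share an N-terminal DNA-binding domain that reads repeats of the letters GAAA, the core of the interferon-stimulated response element (ISRE). IRF3 and IRF7 are activated by kinases downstream of nucleic acid sensors and Toll-like receptors and turn on type I interferon genes, and IRF9 joins STAT proteins in the complex that relays the interferon signal. IRF1 activates and IRF2 largely represses an overlapping group of genes. In macrophages IRF5 is known for inflammatory cytokine genes, IRF8 for myeloid development together with PU.1, and IRF4 for the alternatively activated state. Much of this control acts on the proteins, and only transcripts were measured here.

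The WT-labelled libraries held 64199075 and 75062945 counts and the anti-Act1-labelled ones held 61926229 and 55435063. Macrophage markers (8 of 8 detected) summed to between 24570 and 26260 CPM (counts scaled to a common library total, here after TMM normalization) in the 4 libraries, whereas 6 epithelial markers summed to at most 0.464 CPM, with *Krt8* and *Krt18* at 0 counts in every library. The macrophage sum is mostly *Lyz2*, and of the 8 markers *Cd14* was called higher (log2 fold change 0.16) and *Itgam* (-0.31) and *Mertk* (-0.40) lower. Their part in the results was not tested. *Traf3ip2* was not lower in the anti-Act1-labelled libraries (6.98 and 7.54 CPM in those labelled WT, 9.64 and 7.84 CPM in the anti-Act1-labelled pair, log2 fold change 0.27, SE 0.12, adjusted p = 0.117). The study reports reduced Act1 expression in BMDMs of anti-Act1 mice from a separate experiment. Its text does not say whether RNA or protein was measured there, so the measures may be unlike. The difference from the counts here was not tested. 4 Y-linked genes summed to 228 and 246 CPM in the WT-labelled libraries and to 0.0162 and 0 CPM in the anti-Act1-labelled pair, where 3 counts of a gene would be 0.0549 CPM at most. The sex of the donor mice and the genotype label therefore cannot be told apart in any comparison here.

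The promoters of the members are shown first, because the family regulates its own genes and its target genes through short DNA elements. The windows are 300 bases of the mouse reference (RefSeq, GRCm38.p6), from 250 bases before to 50 bases after an annotated transcription start. All 8 members had a window, with 11 windows in all. 3 motifs were searched on both strands, namely the IRF element GAAANNGAAA, the STAT-binding GAS element TTCNNNGAA, and the binding site of NF-κB (κB). Capitals mark the matches. *Irf7* and *Irf5*, whose transcripts differed between the groups, are shown with *Irf1* and *Irf2*, the activator and the repressor. The *Irf7* window is chr7:141266375-141266674 on the minus strand, that of *Irf5* is chr6:29526375-29526674, that of *Irf1* is chr11:53769764-53770063 and that of *Irf2* is chr8:46739495-46739794, all 3 on the plus strand.
Irf7: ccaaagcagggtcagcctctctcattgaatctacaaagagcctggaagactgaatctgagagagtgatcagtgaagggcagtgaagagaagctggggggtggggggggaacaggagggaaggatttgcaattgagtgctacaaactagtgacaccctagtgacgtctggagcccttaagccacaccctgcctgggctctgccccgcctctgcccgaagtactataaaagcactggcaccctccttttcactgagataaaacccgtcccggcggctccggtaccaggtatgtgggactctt
Irf5: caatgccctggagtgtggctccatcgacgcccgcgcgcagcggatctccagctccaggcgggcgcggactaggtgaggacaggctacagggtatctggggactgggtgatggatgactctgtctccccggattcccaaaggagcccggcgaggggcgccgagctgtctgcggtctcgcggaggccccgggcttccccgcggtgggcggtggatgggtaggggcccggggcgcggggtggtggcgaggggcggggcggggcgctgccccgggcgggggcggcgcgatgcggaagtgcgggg
Irf1: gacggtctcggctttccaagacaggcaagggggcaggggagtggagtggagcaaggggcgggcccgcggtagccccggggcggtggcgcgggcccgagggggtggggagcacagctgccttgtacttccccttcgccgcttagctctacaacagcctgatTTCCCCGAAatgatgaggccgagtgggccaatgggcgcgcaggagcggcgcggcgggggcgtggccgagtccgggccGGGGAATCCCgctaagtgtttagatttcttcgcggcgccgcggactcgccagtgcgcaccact
Irf2: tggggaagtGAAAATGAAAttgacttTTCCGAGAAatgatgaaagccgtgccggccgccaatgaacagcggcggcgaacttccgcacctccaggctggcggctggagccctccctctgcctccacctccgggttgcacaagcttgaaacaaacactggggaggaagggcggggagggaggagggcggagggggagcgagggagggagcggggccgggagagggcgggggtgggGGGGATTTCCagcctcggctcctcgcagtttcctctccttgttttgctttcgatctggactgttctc
The IRF element was found in 1 of the 11 windows (9.09%), that of *Irf2*, where it starts 241 bases before the transcription start, and it was found in 3.44% of all 32851 windows of the reference table. A GAS element stood in 3 of the 11 windows, against 8.30% of all windows. It lay 90 bases before the start of *Irf1*, 224 bases before that of *Irf2*, and at 2 places in the first *Irf8* window, 171 and 153 bases before the start. The κB motif stood in 2 of the 11 windows, 13 bases before the start of *Irf1* and 17 bases before that of *Irf2*, against 8.46% of all windows. No match to the 3 motifs lay in the windows of *Irf7*, *Irf5*, *Irf3*, *Irf4* or *Irf9*, which says only that these letters do not occur there. The *Irf5* window lies wholly inside the gene (chr6:29526130-29541869), so the bases before the gene's first position were not searched. The *Irf7* window is also set on a start inside its gene. On the minus strand, it reaches upstream past the gene's first position, 141266499.

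*Irf7* was higher and *Irf5* was lower in the anti-Act1-labelled libraries, and the other 6 members did not pass the test. A gene was called where the adjusted p of edgeR's quasi-likelihood test was under 0.05. All 8 members passed the filter on low counts. The 2 called members are 25.0% of the family, beside 20.7% of all 12494 genes tested, so that the share of called members was near that of genes in general. 1 member was called higher, beside 10.9% of all genes, and 1 lower, beside 9.76%. The median log2 fold change of the 8 members was -0.02, and that of all genes tested was -0.0046.

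*Irf7*, the interferon-inducible factor that drives most type I interferon genes, stood at 629.7 and 604 CPM in the WT-labelled libraries and at 845 and 851 CPM in the anti-Act1-labelled pair. Both anti-Act1 values lay above both WT values, and the gap between the groups was many times the gap within either. The mean rose from 617 ± 18.1 CPM to 848 ± 4.28 CPM (SD, n = 2 each). This is a log2 fold change of 0.46 (SE 0.05, 95% interval 0.36 to 0.56), or 37.5% more transcript (28.2 to 47.4%), with an adjusted p of 4.59e-10. By adjusted p, *Irf7* ranked 158 among all genes tested.

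*Irf5*, known for the inflammatory cytokine genes of macrophages, stood at 231 and 237 CPM in the WT-labelled libraries and at 203 and 202 CPM in the anti-Act1-labelled pair. The groups did not overlap, and the difference was smaller than that of *Irf7*. The mean fell from 234 ± 3.80 CPM to 203 ± 1.09 CPM (SD, n = 2 each). The log2 fold change was -0.21 (SE 0.05, 95% interval -0.31 to -0.11), a change of -13.4% (-19.3 to -7.04%), with an adjusted p of 0.00183.

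The 2 calls were kept in each of the alternative fits listed in the methods. *Irf7* and *Irf5* passed the test in 13 of 13 alternative fits, with log2 fold changes of 0.43 to 0.49 and of -0.23 to -0.19 and adjusted p-values of 4.10e-26 to 0.0138 and of 1.27e-04 to 0.0473. *Irf5* shares 411 of its 2905 exonic bases (14.1%, GENCODE M21) with *Tnpo3*, a nuclear import receptor on the other strand, and whether strand was used in counting is not stated. *Tnpo3* had a log2 fold change of -0.04 (adjusted p = 0.724). *Irf7* shares 45 of 3776 exonic bases (1.19%) with *Phrf1* on the other strand, which had a log2 fold change of -0.08 (adjusted p = 0.410). Plasmacytoid dendritic cells are known for high *Irf7*, and their 5 markers summed to 0.712 and 0.712 CPM in the WT-labelled libraries and to 1.34 and 1.25 CPM in the anti-Act1-labelled pair. None of the 3 of these markers that were tested was called, *Klk1* was at 0 in every library, and *Siglech* had 2 counts in 1 anti-Act1-labelled library and 0 elsewhere. Their part in the result was not tested. In a bulk sample, fewer cells of a type and less RNA per cell cannot be told apart.

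**Figure D1:**
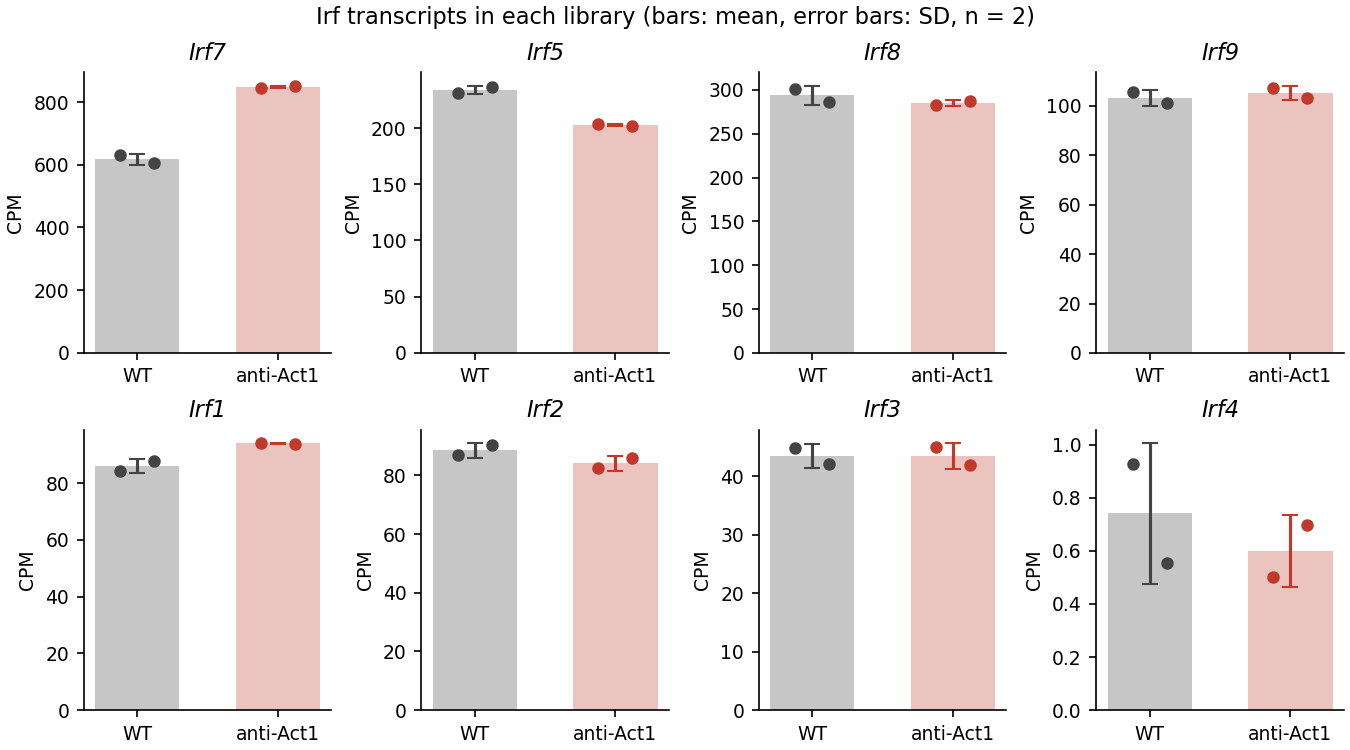
CPM (vertical axes, from 0) of the 8 *Irf* transcripts in the WT-labelled (grey) and anti-Act1-labelled (red) libraries, where points are libraries, bars are means and error bars are SD (n = 2). *Irf7* rises from 617 to 848 CPM and *Irf5* falls from 234 to 203 CPM, and the points of *Irf3*, *Irf4*, *Irf8* and *Irf9* overlap between the groups.

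*Irf3*, the constitutively present partner of *Irf7* in interferon induction, had nearly the same mean in both groups. It stood at 44.9 and 42.0 CPM in the WT-labelled libraries and at 45.0 and 41.8 CPM in the anti-Act1-labelled pair, and the values of the groups interleave. The log2 fold change was 0.0010 (SE 0.06, 95% interval -0.13 to 0.13, adjusted p = 0.994), and its sign changed with the processing. The interval leaves out a change of the size seen for *Irf7*. *Irf3* shares 88 of 3442 exonic bases (2.56%) with *Bcl2l12* on the other strand, which had a log2 fold change of -0.20 (adjusted p = 0.349).

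*Irf9*, the DNA-binding subunit of the interferon-activated STAT complex, stood at 105 and 101 CPM in the WT-labelled libraries and at 107 and 103 CPM in the anti-Act1-labelled pair. The groups overlap, and the log2 fold change was 0.03 (SE 0.05, 95% interval -0.08 to 0.14, adjusted p = 0.769). *Irf9* shares 123 of 5386 exonic bases (2.28%) with *Rnf31* on the same strand, which had a log2 fold change of 0.06 (adjusted p = 0.568).

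*Irf1*, an activator induced by interferon-γ and NF-κB, stood at 84.3 and 87.9 CPM in the WT-labelled libraries and at 94.1 and 93.9 CPM in the anti-Act1-labelled pair. Both anti-Act1 values lay above both WT values, yet the difference did not pass the test across all genes (log2 fold change 0.13, SE 0.05, 95% interval 0.02 to 0.24, adjusted p = 0.0972). It was called in 0 of 13 alternative fits, where the adjusted p ran from 0.0758 to 0.322, and it passed when the replicates were paired crosswise, a fit added after seeing the data. *Irf2*, which binds the same DNA and counters *Irf1*, stood at 86.8 and 90.4 CPM in the WT-labelled libraries and at 82.4 and 85.9 CPM in the anti-Act1-labelled pair. Its groups did not overlap either, with the order opposite to that of *Irf1*, and it did not pass the test (log2 fold change -0.07, SE 0.06, 95% interval -0.19 to 0.04, adjusted p = 0.387). With 2 libraries per group, a lack of overlap alone says little for any member, and its share among all genes was not counted.

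*Irf8*, a factor of monocyte and dendritic cell development, stood at 302 and 286 CPM in the WT-labelled libraries and at 283 and 288 CPM in the anti-Act1-labelled pair. The groups overlap (log2 fold change -0.04, SE 0.05, 95% interval -0.14 to 0.06, adjusted p = 0.634). *Irf4*, linked to alternative activation, had 60 and 42 counts in the WT-labelled libraries and 31 and 38 counts in the anti-Act1-labelled pair, which is 0.929, 0.553, 0.502 and 0.696 CPM. At these counts the interval was wide (log2 fold change -0.30, SE 0.40, 95% interval -1.10 to 0.50, adjusted p = 0.663), so that changes from -53.4% to 41.0% lay within it. The difference was not detectable at this depth.

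**Figure D2:**
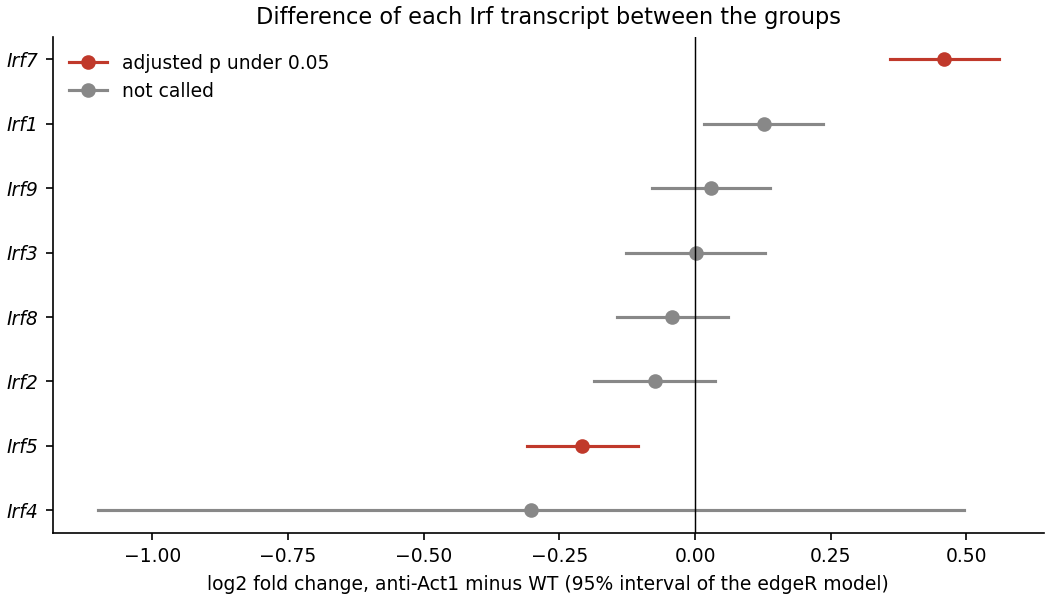
Log2 fold change (horizontal axis, anti-Act1 minus WT) of each *Irf* transcript with its 95% interval from the edgeR model, red where the adjusted p was under 0.05. *Irf7* (0.46) lies to the right of 0 and *Irf5* (-0.21) to the left, the interval of *Irf1* (0.02 to 0.24) also leaves out 0 without passing the adjustment, and that of *Irf4* is the widest.

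3 genes related to the family by name were also read. The IRF2-binding corepressor genes and their relative *Irf2bpl* did not pass the test, with log2 fold changes of 0.05 for *Irf2bp1* (adjusted p = 0.704), 0.11 for *Irf2bp2* (adjusted p = 0.134) and -0.03 for *Irf2bpl* (adjusted p = 0.753).

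Levels were compared between members per gene length, as FPKM (fragments scaled to gene length and library total), and *Irf7* was the most abundant member in every library. Its FPKM was 355 and 343 in the WT-labelled libraries and 473 and 470.2 in the anti-Act1-labelled pair, and it ranked 134 among all genes by mean FPKM. *Irf5* came next (92.4 to 111 FPKM over the 4 libraries), then *Irf8* (90.5 to 97.5 FPKM). Their ranges overlap, although *Irf5* was above *Irf8* in 4 of 4 libraries, at 94.3 against 90.5 and 92.4 against 91.0 FPKM in the anti-Act1-labelled libraries. *Irf9* (41.5 to 43.7 FPKM) and *Irf1* (40.03 to 44.3 FPKM) could not be ordered, since *Irf9* was the higher in 1 of 4 libraries. *Irf2* (27.9 to 31.0 FPKM) and *Irf3* (24.6 to 26.9 FPKM) followed without overlap. *Irf4* was last by far, at 0.106 to 0.197 FPKM.

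**Figure D3:**
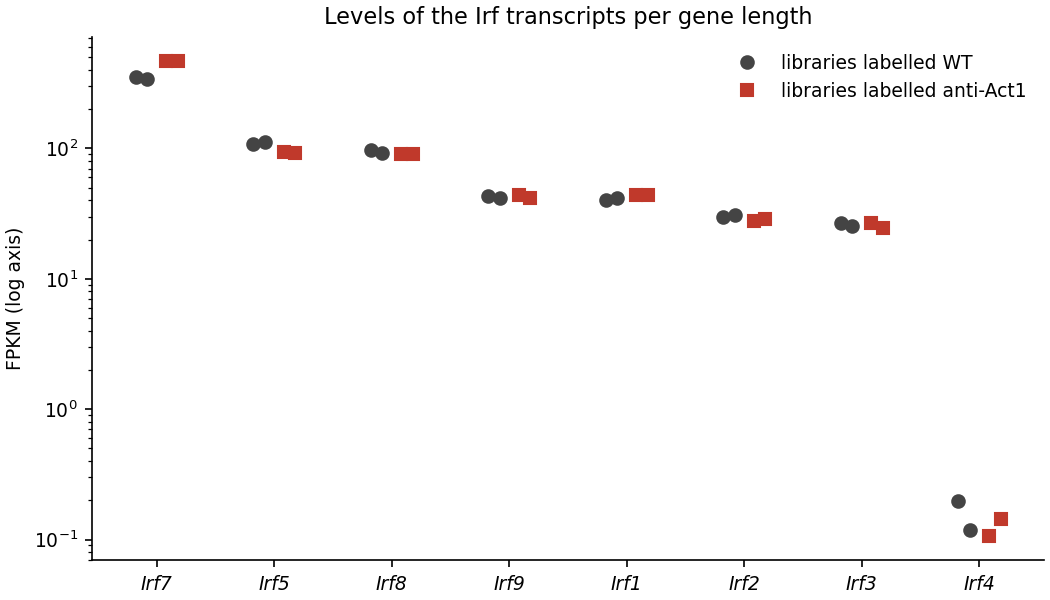
Level per gene length (FPKM, log axis) of each *Irf* transcript in the WT-labelled (circles) and anti-Act1-labelled (squares) libraries, ordered by the mean over libraries. The levels run from *Irf7* (343 to 473 FPKM) down to *Irf4* (0.106 to 0.197 FPKM), and *Irf9* and *Irf1* lie at the same height.

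*Irf7* alone made up about as much FPKM as the other 7 members together in the WT-labelled libraries, and more than them in the anti-Act1-labelled pair. Its share of the family's summed FPKM was 50.7% and 49.9% in the WT-labelled libraries and 59.1% and 59.4% in the anti-Act1-labelled pair. The sum over the 8 members was 701 and 687 FPKM in the WT-labelled libraries and 800.2 and 792 FPKM in the anti-Act1-labelled pair. Without *Irf7* the order of the groups turned, at 346 and 344 FPKM against 328 and 322 FPKM. The share of *Irf5* was 15.4% and 16.2% in the WT-labelled libraries and 11.8% and 11.7% in the anti-Act1-labelled pair. These shares are parts of a single total, so that a rise of 1 member lowers the others' shares.

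4 ratios of FPKM between members with opposed or paired roles were compared within each library, where the scaling of libraries drops out. The ratio of the activator *Irf1* to the repressor *Irf2* was 1.35 and 1.35 in the WT-labelled libraries and 1.59 and 1.52 in the anti-Act1-labelled pair. The ratio of *Irf7* to *Irf3* was 13.2 and 13.5 in the WT-labelled libraries and 17.6 and 19.1 in the anti-Act1-labelled pair. In both ratios the anti-Act1 values lay above the WT values, with a two-sided exact permutation p of 0.333, the smallest that 2 libraries against 2 can give (0.667 after Benjamini-Hochberg adjustment over the 4 ratios). The ratios of *Irf8* and of *Irf5* to *Irf4* rest on few *Irf4* counts and overlapped between the groups, from 494 to 856 for *Irf8* and from 548 to 941 for *Irf5* (exact permutation p = 0.667 and 1.0, adjusted 0.889 and 1.0).

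Genes that act before, with or after the IRFs were taken from hand-written lists, and each list is set beside the 10.9% and 9.76% of all genes called higher and lower. Of 10 genes of interferon reception, 3 were called higher and 1 lower, with a median log2 fold change of 0.08. *Stat2*, a partner of IRF9, did not pass the test (227 and 235 CPM in the WT-labelled libraries, 241 and 235 CPM in the anti-Act1-labelled pair, log2 fold change 0.04, adjusted p = 0.632). Among the receptor chains, *Ifnar2* of the type I receptor rose (log2 fold change 0.22, SE 0.05, adjusted p = 0.00108). *Ifngr1* of the interferon-γ receptor was lower (log2 fold change -0.15, SE 0.05, adjusted p = 0.0230), a call that was lost without either anti-Act1-labelled library. The interferon gene *Ifnb1* was near the limit of detection, with 4 and 0 counts in the WT-labelled libraries and 10 and 16 counts in the anti-Act1-labelled pair (adjusted p = 0.0264), and it was called in 4 of the 8 alternative fits that gave it an adjusted p, and not without WT replicate 2 or without anti-Act1 replicate 1.

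The list of sensors, adaptors and kinases moved both ways. Of 26 genes, 4 were called higher and 6 lower, with a median of 0.02 that changed sign with the scaling. *Tbk1* and *Ikbke*, the kinases that phosphorylate IRF3 and IRF7, did not pass the test (log2 fold changes 0.03 and 0.06, adjusted p = 0.758 and 0.481). The adaptor genes *Traf6* (77.3 and 82.5 against 109 and 106 CPM, log2 fold change 0.43), *Ticam2* (0.41) and *Traf3* (0.29) rose. The endosomal DNA receptor *Tlr9* fell from 17.7 and 17.3 to 11.0 and 11.2 CPM (log2 fold change -0.66, SE 0.09, adjusted p = 1.35e-07), and *Tmem173*, which encodes the DNA sensing adaptor STING, fell from 38.5 and 37.6 to 28.4 and 28.7 CPM (log2 fold change -0.41). The fourth gene called higher was *Cd14* (0.16), named after its value was seen. Its call was lost without WT replicate 2, without anti-Act1 replicate 1 and by limma on log2(FPKM + 1) and on log2(FPKM + 0.1). The remaining genes called lower, also named after their values were seen, were *Tlr4* (-0.29), *Tlr7* (-0.25), *Irak4* (-0.21) and *Ikbkb* (-0.15). The call of *Irak4* was lost without either anti-Act1-labelled library, and that of *Ikbkb* whenever 1 library was left out.

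Of 8 transcription factors that bind DNA together with IRFs, 2 were called higher and 1 lower (median 0.17). *Spi1*, which encodes PU.1, the partner of IRF8 and IRF4, stood at 355 and 354 CPM in the WT-labelled libraries and at 349.5 and 356 CPM in the anti-Act1-labelled pair and was not called (log2 fold change -0.01, adjusted p = 0.932). The AP-1 genes *Jun* and *Junb* rose (log2 fold changes 0.23 and 0.21, adjusted p = 3.74e-04 and 0.00138), and the lymphoid and myeloid regulator *Ikzf1* fell (-0.25, adjusted p = 7.70e-04). Of 10 negative regulators of IRF and interferon signalling, 4 rose and 2 fell (median 0.15). *Tnfaip3*, which encodes the ubiquitin-editing enzyme A20, rose from 73.5 and 72.9 to 112.5 and 113.5 CPM (log2 fold change 0.63, adjusted p = 5.31e-13). *Socs3* (0.58) and *Usp18* (0.53), both feedback inhibitors of cytokine receptors, rose as well. The phosphatase gene *Ptpn6* (-0.29) and the STAT inhibitor gene *Pias1* (-0.25) fell.

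Most of the listed target genes of the ISRE were higher in the anti-Act1-labelled libraries. Of 23 listed targets tested, 17 rose and 1 fell (78.3% called, beside 20.7% of all genes tested), with a median log2 fold change of 0.32. By limma on log2(FPKM + 1) without a filter, 12 were called higher. Like the other lists, this list was written with earlier results of these data known. The share called is therefore not independent of these data and is no test of the list. *Mx1* and *Mx2* were not analysed here. *Isg15*, a ubiquitin-like interferon product, rose from 63.5 and 56.3 to 85.1 and 92.3 CPM (log2 fold change 0.57, SE 0.06, adjusted p = 2.49e-10). *Ifit1*, which binds foreign RNA, rose from 88.4 and 84.7 to 127 and 123 CPM (0.53, SE 0.05, adjusted p = 6.01e-11). The T cell chemokine gene *Cxcl10* had the largest rise of the list at a low level, from 2.86 and 3.48 to 9.39 and 8.79 CPM (1.52, SE 0.14, adjusted p = 3.20e-12). *Oasl1* (0.52) and *Usp18* (0.53), which the list of negative regulators also holds, rose as well. The gene that fell was *Oas2* (-0.17, adjusted p = 0.0136), named after its value was seen, and this call was lost without either anti-Act1-labelled library.

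The IRF element was frequent around the starts of these targets. It stood, before or after the start, in 11 of 19 windows of the 17 listed targets that had a window (57.9%), against 3.44% of all windows. The genes were listed as targets of the ISRE, whose core this element holds. A high share was therefore built into the list and is not a result of these data. The matches of the targets described above are shown with 15 bases on each side, all from GRCm38.p6, with the element in capitals. The *Isg15* stretch is chr4:156200860-156200911 on the minus strand and holds 3 overlapping matches. That of *Cxcl10* is chr5:92349078-92349117 on the minus strand, and that of *Ifit1* is chr19:34640770-34640828 on the plus strand, with 2 matches that lie on the other strand.
Isg15: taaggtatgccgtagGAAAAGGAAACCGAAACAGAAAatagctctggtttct
Cxcl10: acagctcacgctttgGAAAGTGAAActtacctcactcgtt
Ifit1: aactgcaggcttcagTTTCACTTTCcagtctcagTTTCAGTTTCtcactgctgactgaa
The first matched base lies 78 bases before the transcription start of *Isg15*, 213 before that of *Cxcl10* and 104 before that of *Ifit1*. Among the targets with the element in a window, 8 of 10 were called higher (median log2 fold change 0.41), and among those with a window and no element 6 of 7 were (0.38), and no test was made of the difference. The *Irf7* window shown above holds no match.

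Targets linked to single members were read next. Of 18 tested targets of IRF1 and IRF8, 10 rose and 1 fell, with a median of 0.20. By limma on log2(FPKM + 1), 8 were called higher and 2 lower. *Nos2*, which encodes the inducible nitric oxide synthase, rose from 69.0 and 69.9 to 168 and 183 CPM (log2 fold change 1.34, SE 0.05, adjusted p = 1.07e-24). *Ptgs2* (0.97), which encodes cyclooxygenase-2, *Gbp2* (0.79), a guanylate-binding protein gene, and *Cd274* (0.58), which encodes PD-L1, rose too. The adhesion gene *Vcam1* fell from 16.5 and 17.3 to 7.50 and 5.82 CPM (-1.34, SE 0.11, adjusted p = 3.94e-14). Neither *Irf1* nor *Irf8* was called in the same libraries.

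Most listed targets of IRF5 were higher, while *Irf5* itself was lower. Of 5 tested cytokine genes, 4 were called higher and 0 lower, with a median of 1.02. The gene not called, *Il12b*, named after its value was seen, lay the other way. It had 37 and 40 counts in the WT-labelled libraries and 15 and 26 in the anti-Act1-labelled pair (log2 fold change -0.63, adjusted p = 0.397). *Il12a*, with 8 and 0 counts in the WT-labelled libraries and 0 in both anti-Act1-labelled ones, was not tested. *Tnf* rose from 7.18 and 6.26 to 14.1 and 13.1 CPM (log2 fold change 1.02, SE 0.11, adjusted p = 3.29e-10), and *Il1b* from 109.6 and 99.2 to 131 and 124 CPM (0.29, SE 0.06, adjusted p = 8.40e-05). The other 2 genes called higher rested on few counts and are named after their values were seen. *Il6* had 4 and 2 counts in the WT-labelled libraries and 17 and 18 in the anti-Act1-labelled pair, and its call was lost without WT replicate 2 and without either anti-Act1-labelled library. *Il23a* had 0 and 2 counts against 12 and 17, at least 5.88-fold higher against 3 counts per library, and its call was lost without WT replicate 1. With *Il23a* at that bound the median was again 1.02. These 2 genes got no adjusted p from DESeq2 and fell below a minimum of 10 counts in every library, where *Tnf* and *Il1b* stayed called, and the median moved to between 0.24 and 1.12 over the alternatives.

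Of 7 tested genes of the hand-written list for IRF4, 2 rose and 1 fell, with a median of 0.10. *Arg1*, which encodes arginase and is known from alternatively activated macrophages, rose from 1535 and 1500.0 to 2381 and 2338 CPM (log2 fold change 0.64, SE 0.05, adjusted p = 1.12e-14). *Mrc1*, which encodes the mannose receptor and is used as a marker of the same state, fell from 399 and 422 to 265 and 265 CPM (-0.63, SE 0.05, adjusted p = 5.57e-14). These 2 markers thus moved in opposite directions by a like amount. The histone demethylase gene *Kdm6b* rose (0.27, adjusted p = 2.64e-04), and whether it acts after IRF4 was not tested.

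**Figure D4:**
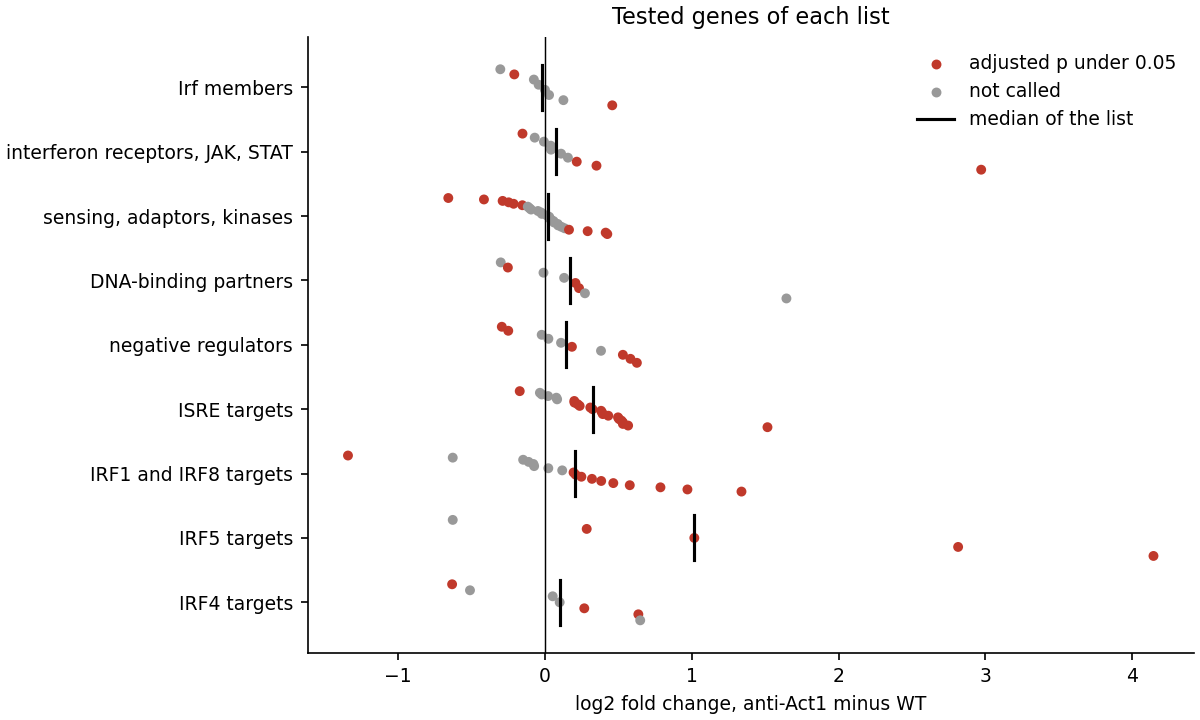
Log2 fold change (horizontal axis, anti-Act1 minus WT) of each tested gene of the *Irf* family and of 8 hand-written lists, red where the adjusted p was under 0.05, with the median of each list as a black bar. The family's median is -0.02, that of the ISRE targets is 0.32 and that of the IRF5 targets is 1.02, and the points farthest to the right are *Ifnb1*, *Il6* and *Il23a*, which rest on few counts.

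The genes whose levels followed the 2 called members most closely over the 4 libraries were picked by the smallest root mean square distance between centred log2 CPM profiles, among 8401 other genes with a mean of at least 10 CPM. For *Irf7* they were *Rusc2*, *Zc3h12a*, which encodes the RNase Regnase-1, *Fmnl2*, a formin gene, *Tsc22d3*, which encodes the glucocorticoid-induced GILZ, and *Hmox1*, the heme oxygenase gene, at distances of 0.0122 to 0.0147 and with log2 fold changes of 0.45 to 0.49. For *Irf5* they were *Ctr9*, a gene of the PAF1 complex, *Fam13b*, *Vps53*, *Myo5a* and *Herc4*, at distances of 0.00354 to 0.00571 and with log2 fold changes of -0.21 in each case. The likeness rests on 4 libraries of 2 groups and on the log2 scale. Because the genes were picked by these profiles, log2 fold changes near those of the members were built into the choice.

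**Figure D5:**
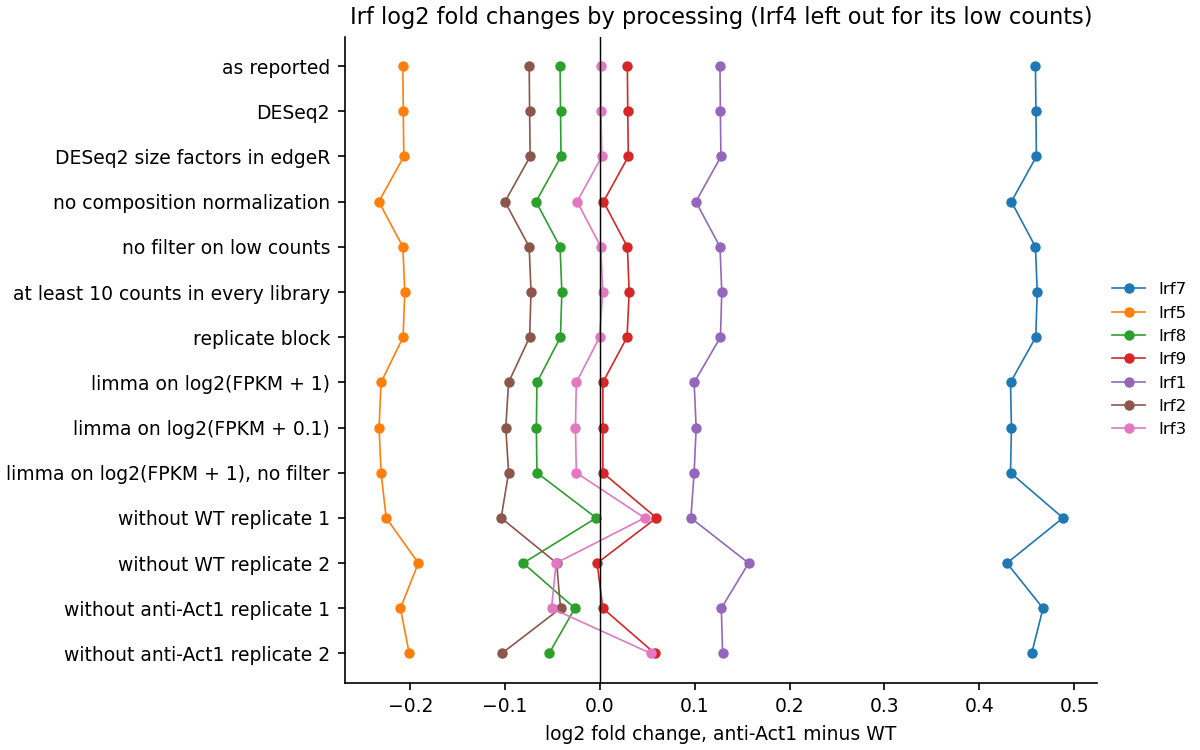
Log2 fold change (horizontal axis, anti-Act1 minus WT) of 7 *Irf* transcripts as reported and under the 13 alternative settings (vertical axis), joined by lines for each gene; *Irf4* is left out for its low counts. *Irf7* stays between 0.43 and 0.49 and *Irf5* between -0.23 and -0.19, while *Irf3* crosses 0.

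The 8 genes lie on autosomes, and their positions in RefSeq (GRCm38.p6) are as follows. *Irf5* (Entrez 27056) is at chr6:29526130-29541869, *Irf3* (54131) at chr7:44997648-45002848 and *Irf7* (54123) at chr7:141263183-141266499. *Irf2* (16363) is at chr8:46739745-46847458 and *Irf8* (15900) at chr8:120736358-120756694 on the same chromosome. *Irf1* (16362) is at chr11:53770014-53778374, *Irf4* (16364) at chr13:30749233-30766981 and *Irf9* (16391) at chr14:55603985-55610030. In GENCODE M21 the exons of *Irf2*, *Irf4* and *Irf8* overlap no other gene, and those of *Irf1* share 135 of 3976 bases (3.40%) with *Gm17334* on the other strand, which was not analysed here. Counts were read over whole genes, so that isoforms were not told apart.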

How the data were processed

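The authors discarded reads that held adapter sequence, poly-N or poor base quality, and aligned pairs of 150 bp reads with TopHat, as the methods state. The submitters' processing notes list Bowtie 0.12.2, HTSeq 0.6.1 and the builds mm8 and mm10 without roles, so coordinates here are those of RefSeq (GRCm38.p6) and GENCODE M21, and the authors' annotation is not given in the sources used here. They deposited whole counts per gene, without normalization, and deposited FPKM values, which equal those counts divided by gene length and library total. The labels give 48 h of coculture and 8 weeks of age, and the study's text gives a shorter coculture and a wider age range. This was not resolved.

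CPM, fold changes, SE and two-sided p-values were computed with edgeR 4.0.16 (R 4.3.3), with TMM scaling, filterByExpr, the quasi-likelihood F test on condition and Benjamini-Hochberg adjustment over all 12494 genes tested. The common biological coefficient of variation was 0.0479. With 2 libraries per group the spread is shared across genes. The members and lists were chosen with earlier results of these data known, so no p was adjusted over a list. Named genes were the 8 members, 3 related genes, up to 5 called genes per list with the largest change and a mean of at least 1 CPM, *Stat2*, *Spi1*, *Ifnb1*, *Tbk1*, *Ikbke* and *Traf3ip2*, and the 5 nearest profiles to *Irf7* and *Irf5*. Some genes that met these criteria are not reported here. Alternatives used DESeq2 1.42.0, limma 3.58.1 on log2(FPKM + 1) or log2(FPKM + 0.1), other scalings and filters, a replicate block and each library left out. The limit of 3 counts covers counting error only. The fitting was tested on simulated data.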

Additional observations from a re-analysis of the deposited data

How the results depend on the processing

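Over the 13 alternative settings, 2 members were called, 1 higher and 1 lower, and the direction and call of *Irf7*, *Irf5*, *Irf1*, *Irf2* and *Irf8* held in each. The number of genes called, 2586, moved to 1091 by limma on log2(FPKM + 1) without a filter, to 1986 by DESeq2, and to between 1671 and 2543 with 1 library left out. Without composition normalization 43.9% of the called genes were higher, against 52.8% as reported, and no setting moved the median of all genes by more than 0.03. *Irf3*, never called, turned to -0.024 without composition normalization, to -0.00036 with the replicate block, to -0.025, -0.026 and -0.025 by limma on log2(FPKM + 1), on log2(FPKM + 0.1) and without a filter, and lay between -0.051 and 0.054 with 1 library left out. *Irf4* got no value from the 2 limma fits with a minimum FPKM. With 1 library left out, *Irf4* lay between -0.64 and 0.11, *Irf9* between -0.0029 and 0.060, the log2 difference of the *Irf8* to *Irf4* ratio between -0.10 and 0.57, and that of *Irf5* to *Irf4* between -0.32 and 0.46. The median of the sensing list turned to -0.0041 without composition normalization, to -0.0038, -0.0040 and -0.0038 by limma in the same order, and lay between -0.016 and 0.048 with 1 library left out. Of the other genes named, limma without a filter lost the calls of *Traf3*, *Tlr4*, *Tlr7*, *Ikbkb*, *Ikzf1*, *Junb*, *Socs3*, *Pias1*, *Kdm6b* and *Il1b*, besides those of *Ifngr1*, *Ifnb1* and *Cd14*. The cause of these changes was not tested.

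The labels share replicate numbers between the groups but do not say that a number marks a shared animal or day, and the deviations of replicate 1 from the group means had r = -0.109 across 8406 genes, which are not independent replicates. The replicate block called 2406 genes and 2 members, and lost the calls of *Ifngr1*, *Ikbkb* and *Cd14* among the genes named. A crossed pairing, added after seeing the data, called 3104 genes and 3 members, 2 of them higher, with *Irf1* as the added call. Where 1 library was left out, the lone library was assumed to vary like the other group.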
